A study of Mus with 12 samples.

Results

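The genes described here were 8 Toll-like receptors (Tlr1, Tlr2, Tlr4, Tlr6, Tlr7, Tlr8, Tlr9 and Tlr13) with the co-receptor Cd14 and the adaptor Myd88, taken from the expression table by gene name, 10 of its 25247 genes. RNA of mouse blood was sequenced in 12 libraries, 3 in each of the groups Solvent, DNCB, scMSC and scivMSC, from female BALB/c mice that were 6 weeks old at the start. DNCB is the hapten 1-chloro-2,4-dinitrobenzene, which gives atopic dermatitis-like lesions when painted on skin: the DNCB, scMSC and scivMSC mice were sensitised at 1% between days 0 and 9 (4 applications) and challenged at 0.5% between days 12 and 27 (6 applications), and the Solvent mice were painted with the vehicle. Human umbilical cord mesenchymal stem cells (MSC), 2000000 a dose, were given on days 13, 17, 21 and 25, in scMSC as 100 µL under the skin and in scivMSC as 50 µL under the skin plus 50 µL into the tail vein. Blood was collected on day 30. The model is a hapten dermatitis in an inbred strain treated with cells of another species, the study kept 6 mice in a group of which 3 libraries a group were analysed here, and no injection of the Solvent or DNCB mice is described in the sources used here. The labels do not say that the replicates came from separate mice, so the p-values below measure the spread between these samples.

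Toll-like receptors bind conserved parts of microbes through a leucine-rich outer domain and signal through an inner TIR domain. Tlr1, Tlr2, Tlr4 and Tlr6 act at the cell surface: Tlr2 pairs with Tlr1 or Tlr6 to bind bacterial lipopeptides, and Tlr4 binds lipopolysaccharide with the help of Cd14, which hands the ligand over. Tlr7, Tlr8, Tlr9 and Tlr13 act in endosomes and bind nucleic acids, Tlr7 single-stranded RNA, Tlr9 unmethylated CpG DNA and Tlr13 bacterial ribosomal RNA, while mouse Tlr8 is a close relative of Tlr7. All 8 recruit Myd88, which assembles the Irak kinases and leads to NF-κB and interferon regulatory factors. In blood, monocytes and neutrophils carry most of the surface receptors, and B cells and plasmacytoid dendritic cells are known for Tlr7 and Tlr9.

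Levels are given as FPKM, fragments per kilobase of transcript scaled to the depth of the library, so they may be compared between genes. Library totals were 52179764 to 65139421 estimated counts, of which haemoglobin genes took 78.4 to 89.0%. A single fragment appeared to enter the table as 4 counts, so a level at or under 12 counts in a library (3 fragments) was read as the floor. The members held between 0 and 4321 counts a library, and the floor was reached by Tlr9 in scMSC replicate 2 (8 counts), scivMSC replicate 1 (0 counts, which allows up to 12) and scivMSC replicate 3 (12 counts), and by Tlr4 (8 counts), Tlr8 (8 counts) and Cd14 (1 count) in scivMSC replicate 2. That library was the lowest of the 12 for Tlr1, Tlr2, Tlr4, Tlr6, Tlr7, Tlr8, Tlr13, Cd14 and Myd88, and comparisons of scivMSC are also given without it. A gene was tested where at least 3 libraries reached 1 FPKM, and a gene was called at an adjusted p under 0.05 with a fold change over 2. This left 5527 genes, 9 members among them, while Tlr9 reached 1 FPKM in 0 libraries and was read from a fit of all 25247 genes. Tlr4 and Tlr8 reached 1 FPKM in the 3 DNCB libraries and in no other, so that a difference in DNCB was built into their being tested. Libraries were scaled by total counts. On that scale the median log2 change of all tested genes was 0.06 for DNCB over Solvent, and it was -0.63 for scMSC and -1.53 for scivMSC when set against DNCB, so changes are also given relative to this median or under TMM scaling, which brings it to -0.09, 0.06 and 0.04.

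In the coordinates of the table, Tlr1 lies at chr5:64924679-64933561 and Tlr6 at chr5:64952031-64960048, neighbours on the minus strand with similar sequences between which reads may be split. Tlr7 (chrX:167304929-167330558) and Tlr8 (chrX:167242696-167264329) are also neighbours on the minus strand. Tlr2 lies at chr3:83836272-83841767 on the minus strand, Tlr4 at chr4:66827584-66930284, Tlr9 at chr9:106222598-106226883 and Tlr13 at chrX:106143204-106160493, the last 3 on the plus strand. Myd88 (chr9:119335934-119340041, minus strand) overlaps Acaa1a on the plus strand, and since strand use in counting was not given in the sources used here, reads of this pair cannot be told apart. The submitters list the build mm8, whereas 87.2% of 21414 genes start within 1000 bases of their RefSeq start in GRCm38, so these positions were read as GRCm38.

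Over the 4 groups, all 9 tested members differed (edgeR quasi-likelihood F test, adjusted p from 6.43e-06 for Myd88 to 0.00199 for Tlr7), as did 72.3% of all tested genes. Myd88, Tlr13 and Cd14 were the most abundant in the DNCB mice and Tlr9 the least. DNCB against Solvent asks what the dermatitis model did to blood: 7 of the 9 tested members rose (Tlr2, Tlr4, Tlr6, Tlr8, Tlr13, Cd14 and Myd88), against 15.6% of tested genes that rose. Tlr4 and Tlr8 were tested through their DNCB libraries alone, so their rise was built into these counts, and Tlr2, Tlr6, Tlr13, Cd14 and Myd88 were the others that rose. In the fit of all genes 7 of the 10 rose, against 3.41% of genes, most of which lay under the filter. Under TMM scaling 8 of the 9 rose, Tlr7 being added, against 16.1% of tested genes. The same 7 had DNCB libraries that were all above the Solvent libraries, which held for 25% of tested genes.

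Among the surface receptors, Tlr2 moved most with DNCB. Its FPKM was 1.196, 0.858 and 0.308 in Solvent, 5.14, 7.31 and 5.46 in DNCB, 0.259, 0.803 and 0.833 in scMSC and 0.344, 0.218 and 0.239 in scivMSC. The DNCB libraries stood apart from the other 9, which ran into each other. The log2 fold change in DNCB against Solvent was 2.92 ± 0.52 (SE, n = 3 a group, edgeR adjusted p = 0.000729), or 2.86 above the median of all tested genes. Tlr6, one partner of Tlr2, had 1.64, 0.951 and 0.906 FPKM in Solvent, 3.71, 5.96 and 4.08 in DNCB, 0.930, 1.24 and 1.14 in scMSC and 0.816, 0.203 and 0.362 in scivMSC. It rose by 1.97 ± 0.46 on the log2 scale (edgeR adjusted p = 0.00552), with no overlap between DNCB and Solvent.

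Tlr1, the other partner of Tlr2, went its own way. Its FPKM was 4.96, 2.76 and 2.34 in Solvent, 4.44, 8.72 and 5.66 in DNCB, 1.60, 1.23 and 1.47 in scMSC and 0.997, 0.140 and 0.322 in scivMSC. DNCB replicate 1 lay below Solvent replicate 1, and the log2 fold change of 0.90 ± 0.52 did not pass the test (edgeR adjusted p = 0.241). The receptor was the most abundant of the 8 in each Solvent library, and both MSC groups lay below all Solvent libraries. Tlr4 was scarce, with 0.198, 0.374 and 0.234 FPKM in Solvent, 1.15, 2.14 and 1.204 in DNCB, 0.397, 0.445 and 0.617 in scMSC and 0.1865, 0.0244 and 0.119 in scivMSC. Its groups formed 4 steps without overlap, from scivMSC through Solvent and scMSC to DNCB. The step from Solvent to DNCB was 2.48 ± 0.56 (log2, edgeR adjusted p = 0.00452), and that from Solvent to scMSC, 0.85 ± 0.54, did not pass (edgeR adjusted p = 0.279).

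Tlr13, the endosomal receptor for bacterial ribosomal RNA, was the most abundant receptor in each DNCB library. Its FPKM was 1.69, 1.32 and 0.989 in Solvent, 9.96, 14.7 and 9.46 in DNCB, 2.52, 1.67 and 1.88 in scMSC and 1.34, 0.209 and 0.789 in scivMSC. The log2 fold change with DNCB was 3.09 ± 0.50 (edgeR adjusted p = 0.000343), a fold change of 8.52. Tlr8 had 0.382, 0.333 and 0.227 FPKM in Solvent, 1.83, 2.69 and 1.75 in DNCB, 0.474, 0.413 and 0.222 in scMSC and 0.222, 0.0376 and 0.131 in scivMSC. Only the DNCB libraries exceeded 1 FPKM, and the log2 fold change was 2.73 ± 0.55 (edgeR adjusted p = 0.00184). Tlr7, its neighbour on chromosome X, overlapped between the same groups, with 1.23, 0.286 and 0.517 FPKM in Solvent, 1.61, 2.70 and 1.05 in DNCB, 0.782, 0.468 and 0.473 in scMSC and 0.358, 0.115 and 0.224 in scivMSC. Its log2 fold change of 1.39 ± 0.56 missed the threshold (edgeR adjusted p = 0.0893). It passed under TMM scaling (1.2995, adjusted p = 0.0106) and when Solvent replicate 1, its highest Solvent library, was left out (2.15, adjusted p = 0.0200), and also without scivMSC replicate 1 or 2 (adjusted p = 0.0330 for the latter). Other runs that called Tlr7 are given below with the dependence on processing.

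Tlr9 was the one member whose mean was lower in DNCB than in Solvent. It had 0.768, 0.398 and 0.243 FPKM in Solvent, 0.140, 0.357 and 0.154 in DNCB, 0.108, 0.0344 and 0.122 in scMSC and 0, 0.0775 and 0.0569 in scivMSC, from 179, 91 and 59 counts in Solvent down to 0, 16 and 12 in scivMSC. Solvent and DNCB overlapped through DNCB replicate 2. In the fit of all genes the log2 fold change in DNCB against Solvent was -1.11 ± 0.88 (edgeR adjusted p = 0.524), so at this depth a difference was not detectable. Both MSC groups lay below all Solvent and all DNCB libraries, and of these comparisons scivMSC against Solvent alone was called (log2 fold change -3.30, edgeR adjusted p = 0.00754).

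Cd14, the lipopolysaccharide co-receptor, had 1.41, 1.15 and 0.498 FPKM in Solvent, 7.14, 13.4 and 7.96 in DNCB, 1.06, 1.04 and 1.26 in scMSC and 0.714, 0.00235 and 0.876 in scivMSC. The DNCB libraries lay well above the rest, by 3.21 ± 0.76 on the log2 scale over Solvent (edgeR adjusted p = 0.00614). scivMSC replicate 2 held a single count of Cd14, where the other scivMSC libraries held 72 and 87. Myd88, the shared adaptor, had 5.29, 3.29 and 2.74 FPKM in Solvent, 17.3, 26.4 and 18.8 in DNCB, 4.63, 3.20 and 3.96 in scMSC and 1.59, 0.426 and 1.36 in scivMSC. Solvent and scMSC covered the same range, DNCB lay above both and scivMSC below both. Its log2 fold change with DNCB was 2.47 ± 0.43 (edgeR adjusted p = 0.000584).

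**Figure D1:**
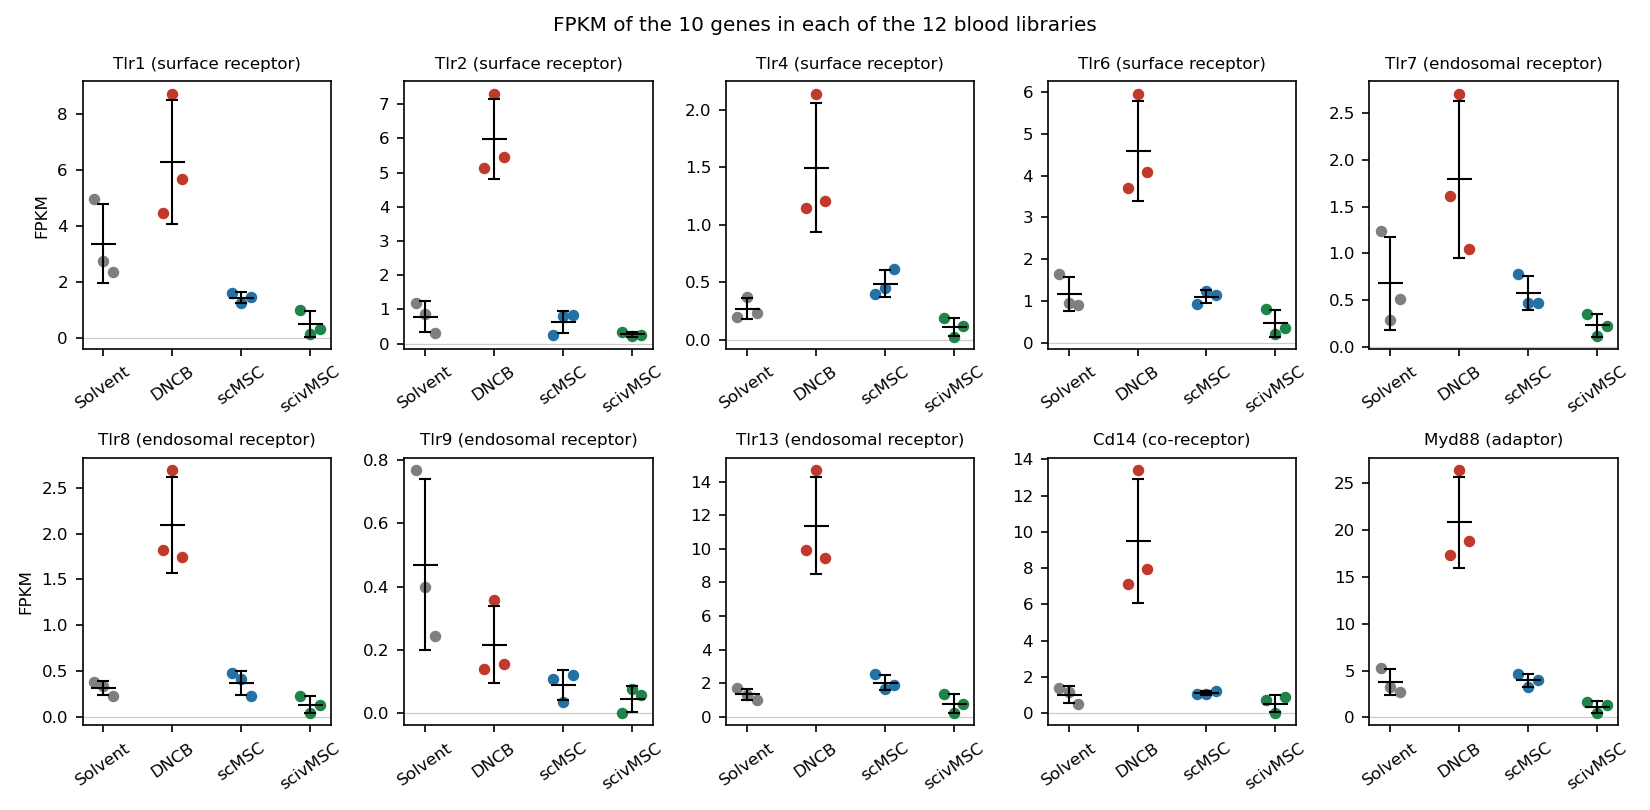
FPKM (vertical axes, linear, each gene on its own range) of the 10 genes in the Solvent, DNCB, scMSC and scivMSC libraries. Each point is 1 library, the dash is the mean and the bar 1 SD (n = 3). The DNCB libraries lie above all others for Tlr2, Tlr4, Tlr6, Tlr8, Tlr13, Cd14 and Myd88, while Tlr9 is highest in Solvent.

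By mean FPKM, scivMSC was the lowest group for all 10 genes. The order from high to low was DNCB, Solvent, scMSC, scivMSC for Tlr1, Tlr2, Tlr6 and Tlr7, and DNCB, scMSC, Solvent, scivMSC for Tlr4, Tlr8, Tlr13, Cd14 and Myd88. Tlr9 ran from Solvent through DNCB and scMSC to scivMSC. Of the neighbours in these orders, Solvent and scMSC overlapped for Tlr2, Tlr6, Tlr7, Tlr8, Tlr13, Cd14 and Myd88, DNCB overlapped Solvent for Tlr1, Tlr7 and Tlr9, scMSC overlapped scivMSC for Tlr2 and Tlr9, and Solvent overlapped scivMSC for Tlr13 and Cd14.

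Both treated groups were compared with DNCB to see how the cells changed the diseased blood, and the 2 comparisons share the DNCB libraries. All 9 tested members fell in scMSC, against 24.9% of tested genes that fell, and all 9 fell in scivMSC, against 62% of tested genes. For Tlr4 and Tlr8, tested through the DNCB libraries alone, a fall from DNCB was built into these counts. The log2 changes in scMSC ran from -1.63 ± 0.54 for Tlr4 (edgeR adjusted p = 0.0335) to -3.24 ± 0.53 for Tlr2 (0.00054), with -2.14 for Tlr1, -2.06 for Tlr6, -1.65 for Tlr7, -2.50 for Tlr8 and Tlr13, -3.09 for Cd14 and -2.42 for Myd88. Relative to the median of all tested genes the same values ran from -0.996 to -2.61. In scivMSC they ran from -2.93 ± 0.59 for Tlr7 (edgeR adjusted p = 0.000487) to -4.48 ± 0.57 for Tlr2 (1.1e-05), or from -1.40 to -2.95 relative to the median. Without scivMSC replicate 2 all 9 were still called, at -2.60 for Tlr7 to -4.35 for Tlr2. Cd14 in scivMSC fell by 4.14 ± 0.80 on the log2 scale, and by 3.57 without scivMSC replicate 2 (adjusted p = 5.83e-06).

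The MSC libraries of all 9 tested members, and of Tlr9, lay below the DNCB libraries, a separation seen in 49.8% of tested genes for scMSC and in 67.9% for scivMSC. Under TMM scaling 7 members fell in scMSC, against 12.3% of tested genes, and 9 fell in scivMSC, against 18.9%. The fit of all 25247 genes gave 7 of 10 in scMSC, against 4.65% of genes, and 9 of 10 in scivMSC, against 22.9%. In scMSC the calls that went were those of Tlr4 and Tlr7. Tlr4 also lost its call without DNCB replicate 2, scMSC replicate 1, 2 or 3, and Tlr7 without DNCB replicate 1 or 2 or any of the scMSC replicates, with adjusted p up to 0.171 and 0.200.

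scivMSC against scMSC compares the routes. Called were 6 of the 9 tested members (Tlr1, Tlr4, Tlr6, Tlr8, Tlr13 and Myd88), all lower in scivMSC, where 30.4% of tested genes were lower. The changes ran from -1.24 ± 0.46 for Tlr6 (edgeR adjusted p = 0.0472) to -2.12 ± 0.57 for Tlr4 (0.0157), and Myd88 stood at -1.79 ± 0.42 (0.0117). Without scivMSC replicate 2 the calls of Tlr4 (-1.65) and Myd88 (-1.40) were kept, while Tlr1 (-1.10), Tlr6 (-0.89), Tlr8 (-1.06) and Tlr13 (-0.91) were no longer called. The scivMSC libraries lay below the scMSC libraries for 8 of the 10 genes, Tlr2 and Tlr9 being the exceptions, and 46.7% of tested genes were separated in this way. Relative to the median of all tested genes, which was -0.87 here, the changes were small: -1.25 for Tlr4, -0.92 for Myd88 and -0.67 or nearer to 0 for the other members. Under TMM scaling Tlr4 alone was called (-1.37, adjusted p = 0.0302), against 4.92% of tested genes. The count fell from 6 to 1 without scMSC replicate 3, to 2 without Solvent replicate 2, scMSC replicate 1 or 2, or scivMSC replicate 2 or 3, to 3 without DNCB replicate 1 or 3, and to 4 without DNCB replicate 2.

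Against Solvent, scMSC had 0 members called by edgeR, where 0.651% of tested genes were called in either direction. At an unadjusted p under 0.05 there was 1, Tlr1, which was lower (log2 fold change -1.24 ± 0.52, adjusted p = 0.149), and without scivMSC replicate 1 or 2 it was called. Under TMM scaling 1 member was called, Tlr13, higher by 1.13 (adjusted p = 0.0199), against 7.29% of tested genes, and DESeq2 called 2, Tlr13 and Tlr4, both higher. The scMSC libraries lay above all Solvent libraries for Tlr4, as in 7% of tested genes, and below them for Tlr1 and Tlr9, as in 40.6%. scivMSC was called lower than Solvent for 5 members (Tlr1, Tlr2, Tlr6, Tlr7 and Myd88), against 59.2% of tested genes, with the direction turned for Tlr6 under TMM scaling (0.0193) and for Tlr2 and Tlr6 with DESeq2 (0.0111 and 0.0454), and its libraries lay below the Solvent libraries for Tlr1, Tlr4, Tlr6, Tlr8, Tlr9 and Myd88, against 62.6%. Under TMM scaling Tlr1 alone was called (-1.48, adjusted p = 0.00193), against 13.4% of tested genes. The count of 5 became 2 without Solvent replicate 1, 3 without scivMSC replicate 2 or 3 and 8 without scivMSC replicate 1.

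**Figure D2:**
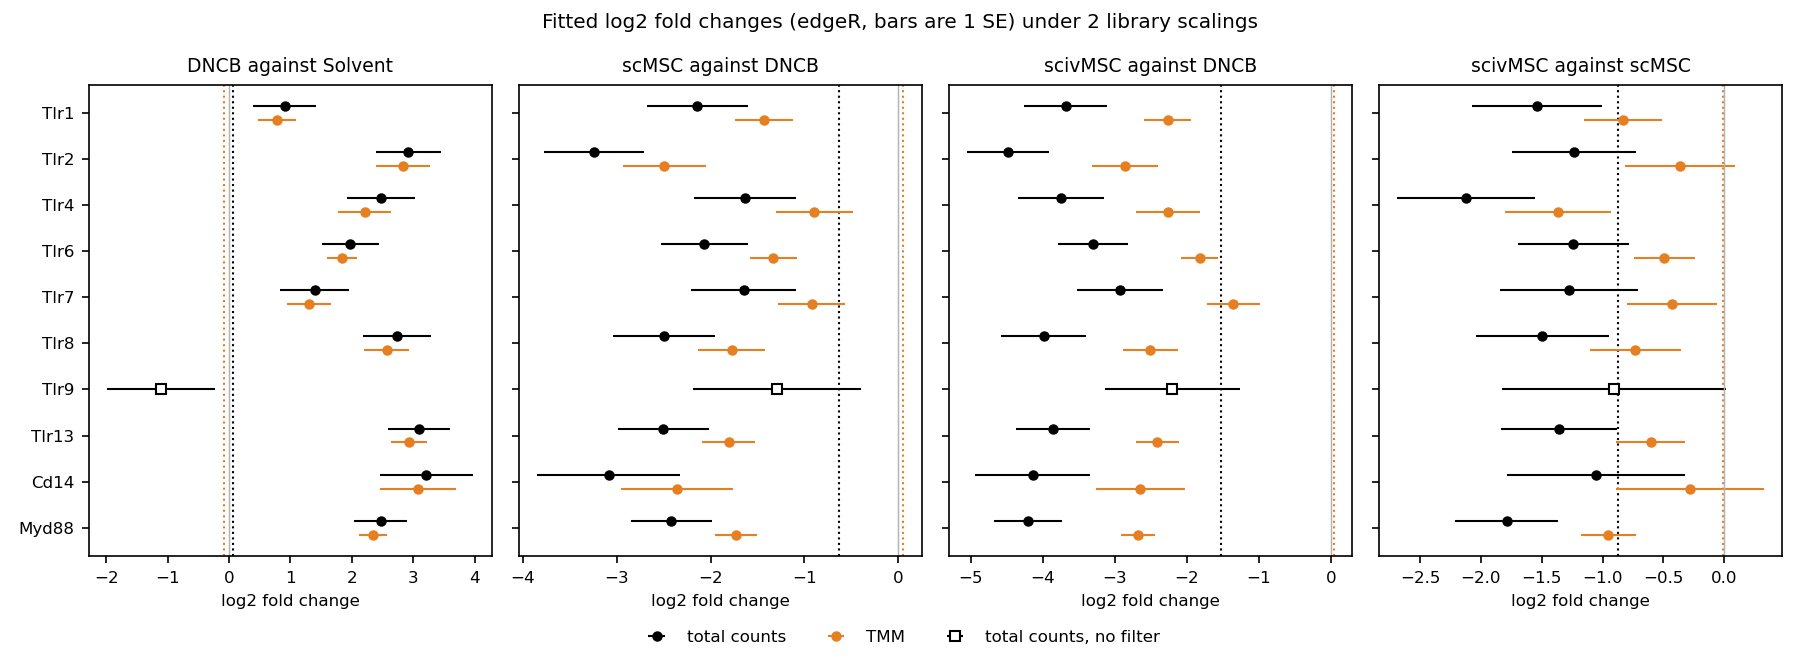
Log2 fold changes (horizontal axes) of the members in 4 comparisons, with 1 SE, from edgeR with libraries scaled by total counts (black) or TMM (orange), and Tlr9 from the fit without a filter (open square). Dotted lines mark the median of all tested genes under each scaling; the members lie to the right of it in DNCB against Solvent, Tlr9 excepted, and to its left in both MSC groups against DNCB.

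A ratio of genes within a library does not depend on library scaling, and the make-up of the 8 receptors differed between groups. Tlr1 supplied 37.9 to 41.1% of the summed FPKM of the receptors in Solvent, 15.9 to 19.6% in DNCB, 19.5 to 22.6% in scMSC and 13.7 to 23.4% in scivMSC. Tlr13 supplied 13.98 to 18.2% in Solvent, 32.8 to 35.6% in DNCB, 26.5 to 35.6% in scMSC and 20.4 to 35.2% in scivMSC. All 9 libraries of DNCB-painted mice, with or without MSC, thus held a smaller share of Tlr1 and a larger share of Tlr13 than any Solvent library. The summed FPKM itself was 5.77 to 12.1 in Solvent, 28.0 to 44.6 in DNCB, 6.30 to 7.07 in scMSC and 1.02 to 4.27 in scivMSC, so that scMSC had a sum within the range of Solvent but other shares of Tlr1 and Tlr13. These shares were picked out after their values were seen and carry no test, and in scivMSC replicate 2 they rest on 27 counts of Tlr1 and 51 of Tlr13.

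The balance between Tlr2 and its partners differed too. FPKM of Tlr1 was 3.21 to 7.61 times that of Tlr2 in Solvent and 0.863 to 1.19 times in DNCB. scMSC, at 1.53 to 6.17 times, overlapped Solvent, while scivMSC, at 0.645 to 2.90 times, lay below Solvent and overlapped DNCB. Tlr1 was 2.58 to 3.02 times Tlr6 in Solvent, 1.196 to 1.46 times in DNCB, 0.989 to 1.72 times in scMSC and 0.693 to 1.22 times in scivMSC, again with all DNCB-painted mice below Solvent. Tlr2 took 5.34 to 11.8% of the receptor sum in Solvent, 16.4 to 18.9% in DNCB and 3.67 to 12.7% in scMSC, which covered the Solvent range. In scivMSC its share of 8.06 to 21.3% overlapped both Solvent and DNCB. Tlr13 was 3.22 to 3.98 times Tlr7 in scMSC and 1.82 to 3.76 times in scivMSC. Both lay within the 1.37 to 4.62 times of Solvent and below the 5.43 to 9.03 times of DNCB. Tlr9 took 4.21 to 6.37% in Solvent, 0.502 to 0.802% in DNCB, 0.546 to 1.81% in scMSC and 0 to 7.57% in scivMSC. Myd88 kept closer to the receptors, at 0.438 to 0.475 of their summed FPKM in Solvent, 0.593 to 0.653 in DNCB, 0.508 to 0.655 in scMSC and 0.372 to 0.605 in scivMSC. Cd14 was 6.23 to 6.61 times Tlr4 in DNCB and 2.04 to 2.66 times in scMSC, while Solvent (2.13 to 7.14) overlapped both. In scivMSC it was 0.0964 to 7.37 times Tlr4, the lowest value resting on the single count of Cd14 in replicate 2.

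**Figure D3:**
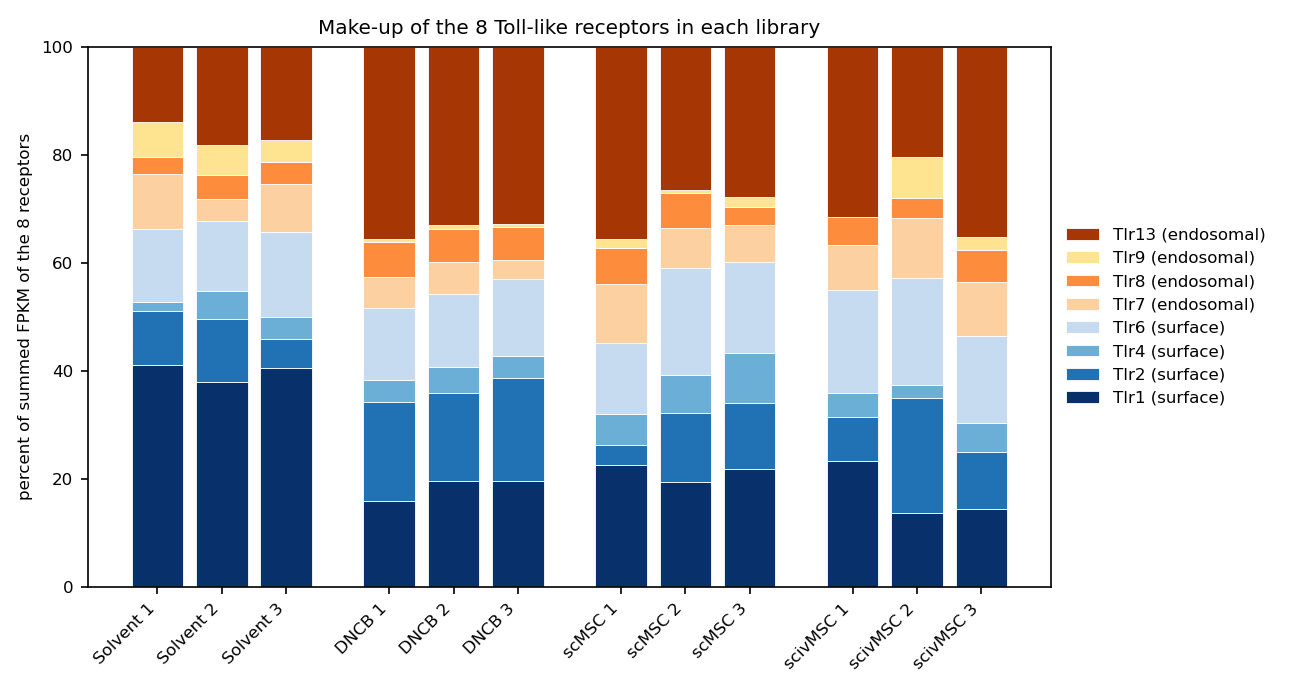
Share of each of the 8 receptors in their summed FPKM (vertical axis, percent, stacked to the whole) in each library, surface receptors in blue and endosomal ones in yellow, orange and brown. Tlr1 fills 37.9 to 41.1% of the Solvent bars and at most 23.4% of the others, and Tlr13 13.98 to 18.2% of the Solvent bars and at least 20.4% of the others.

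Surface and endosomal receptors were also compared as kinds, without a test of the difference. In DNCB against Solvent 3 of 4 surface receptors and 2 of 3 tested endosomal receptors rose, and in scMSC and scivMSC against DNCB all tested receptors of both kinds fell. These counts include Tlr4 and Tlr8, which were tested through the DNCB libraries alone. Tlr9, the other endosomal receptor, was not called in these 3 comparisons. Within libraries the balance of the kinds shifted between Solvent and DNCB without overlap, in a direction that depended on the measure and its weighting of Tlr9. The surface share of summed FPKM was 65.7 to 67.8% in Solvent and lower elsewhere, at 51.6 to 56.9% in DNCB, 45.1 to 60.1% in scMSC and 46.4 to 57.2% in scivMSC. The mean log2(FPKM + 1) of the surface receptors less that of the endosomal ones, in contrast, was 0.29 to 0.437 in Solvent and 0.468 to 0.707 in DNCB, a shift of 0.24, and it shifted by -0.41 in scMSC and -0.55 in scivMSC against DNCB and by -0.14 between the routes. The sum follows the abundant Tlr1 and Tlr13, and the mean of logs weighs Tlr9 like the rest. Tlr9, which was under the filter, averaged 0.470 FPKM in Solvent and 0.217 in DNCB, which lowers the endosomal mean of logs in DNCB. Of the 4 endosomal receptors Tlr9 alone had a lower mean in DNCB than in Solvent, and it weighs more once Tlr13 is left out. The log2 shift without Tlr9 was not computed, so its direction in DNCB may rest on this gene. The size of the shifts against DNCB may rest on it too. The log2 shift is therefore not read as a direction shared by the endosomal receptors. With Tlr13 left out the endosomal receptors made up 17.1 to 23.0% of the other 7 in Solvent and 15.2 to 19.9% in DNCB, which overlap, and the log2 shift in DNCB grew to 0.70.

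Markers of several blood cell types moved with the groups. All 10 neutrophil markers rose in DNCB and fell in both MSC groups against DNCB, and their summed FPKM was 217 to 439 in Solvent, 6964 to 10933 in DNCB, 574 to 715 in scMSC and 247 to 740 in scivMSC. Of 7 tested monocyte markers (8 listed) 2 rose in DNCB, Csf1r and F13a1, 4 fell in scMSC and 6 in scivMSC against DNCB, and the sums were 10.3 to 27.3 FPKM in Solvent, 27.3 to 49.1 in DNCB, 14.1 to 14.97 in scMSC and 9.25 to 10.4 in scivMSC. All 7 tested B cell markers (8 listed) fell in DNCB, from 43.4 to 139 FPKM to 12.2 to 34.4, with 13.1 to 18.6 in scMSC and 3.39 to 8.03 in scivMSC, and 7 of 8 T cell markers fell with them. The 2 tested NK cell markers (6 listed) fell too, with sums of 21.9 to 26.8 FPKM in Solvent, 7.30 to 10.99 in DNCB, 3.59 to 11.2 in scMSC and 3.59 to 10.7 in scivMSC. The sum of eosinophil and basophil markers (8 listed, 4 tested) was highest in DNCB without overlap. It was 1.60 to 3.02 FPKM in Solvent, 7.11 to 8.77 in DNCB, 3.72 to 6.06 in scMSC and 3.58 to 6.19 in scivMSC. Of the tested markers 1, Mcpt8, was called in DNCB, where it averaged 3.49 of the 7.79 FPKM of the sum. Siglecf, Cpa3, Mcpt8 and Ms4a2 had their highest mean in DNCB. Prg2 and Gata2 had theirs in scivMSC (1.92 and 1.42 FPKM, against 0.298 and 0.929 in DNCB), Ccr3 had its highest in scMSC, and Epx was at the floor in each group. Of 7 platelet markers 4 rose in DNCB, with sums of 369 to 586 FPKM in Solvent, 584 to 791 in DNCB, 698 to 896 in scMSC and 715 to 832 in scivMSC. Of 5 plasmacytoid dendritic cell markers 0 were tested, and Siglech, Klk1 and Cox6a2 were at the floor in each group. In bulk blood fewer cells of a type and less RNA per cell cannot be told apart, and the part of cell numbers in the members' levels was not tested.

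Set against these sums, the members took a different order. The neutrophil sum averaged 347 FPKM in Solvent and 8317 in DNCB, and the B cell sum 83.6 and 20.3. A gene that rose less than the neutrophil markers comes out lower per neutrophil marker. Likewise, a gene that fell less than the B cell markers comes out higher per B cell marker. The share of all tested genes separated on these scales was not computed, so the counts below describe the scale as much as the members. S100a8 and S100a9 made up 71.8 to 84.8% of the neutrophil sum. Per 100 FPKM of neutrophil markers all 10 members were lower in DNCB than in Solvent without overlap: Myd88 went from 0.749 to 1.37 in Solvent to 0.242 to 0.267 in DNCB, and Tlr2 from 0.142 to 0.310 to 0.0669 to 0.0774. Without S100a8 and S100a9 all 10 were again lower, whereas per Csf3r, the receptor of a neutrophil growth factor, 6 were lower (Tlr1, Tlr6, Tlr7, Tlr8, Tlr9 and Myd88) and 4 overlapped, Tlr13 at 5.58 to 6.51 per 100 FPKM in Solvent against 5.63 to 5.81 in DNCB. Per 100 FPKM of monocyte markers 7 members were higher in DNCB (Tlr2, Tlr4, Tlr6, Tlr8, Tlr13, Cd14 and Myd88) and Tlr9 was lower. Tlr2 stood at 2.99 to 5.36 in Solvent against 14.9 to 20.0 in DNCB on this scale, Tlr13 at 6.17 to 9.59 against 29.9 to 34.7, and Tlr1 at 17.2 to 22.7 against 14.2 to 20.8, which overlap. The 7 members Tlr1, Tlr2, Tlr6, Tlr8, Tlr13, Cd14 and Myd88 were lower in scMSC than in DNCB per monocyte marker. F13a1 made up 10.3 of the mean monocyte sum of 35.9 FPKM in DNCB, 6.75 of 14.4 in scMSC and 7.29 of 9.65 in scivMSC. In scivMSC against DNCB F13a1 fell least of the listed monocyte markers, while Csf1r went from 10.3 to 0.550 FPKM. The scale was not computed without F13a1, so how far these separations rest on it is not known. Separations of the MSC groups from DNCB on this scale are therefore not read as changes of the members. Ace and Cx3cr1 had lower means in DNCB than in Solvent, and the other listed monocyte markers had higher ones. On the neutrophil scale scMSC against DNCB went the other way, with 9 of the 10 higher in scMSC and Tlr2 overlapping. Per Csf3r 3 were higher in scMSC (Tlr4, Tlr6 and Tlr7) and 2 lower (Tlr2 and Cd14). In scivMSC against DNCB 2 members were higher per neutrophil marker (Tlr6 and Tlr7) and 8 overlapped, and the same held per Csf3r. Without S100a8 and S100a9, Tlr8 and Myd88 were lower in scivMSC. Per monocyte marker 9 members were lower in scivMSC than in DNCB, and Tlr9 overlapped, on a sum that was mostly F13a1 in scivMSC. Per B cell marker all 10 members were higher in DNCB than in Solvent without overlap, Tlr9 at 0.551 to 0.584 per 100 FPKM in Solvent and 0.985 to 1.27 in DNCB, and all 10 were lower in scMSC than in DNCB.

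**Figure D4:**
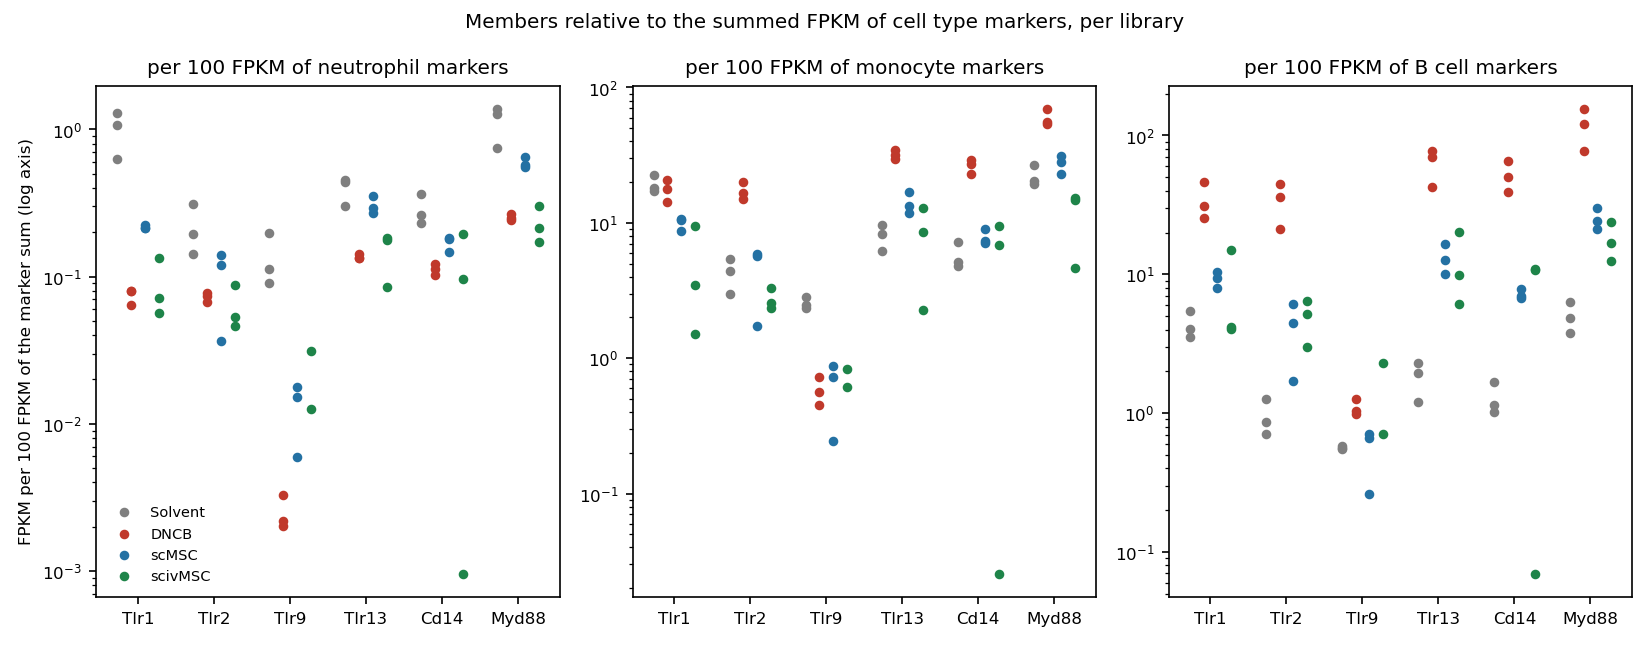
FPKM of 6 members per 100 FPKM of the summed neutrophil, monocyte or B cell markers (log axes), 1 point a library, with Tlr9 in scivMSC replicate 1 not drawn because it is 0. The red DNCB points lie below the grey Solvent points for all 6 members on the neutrophil scale, and above them for Tlr2, Tlr13, Cd14 and Myd88 on the monocyte scale.

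The other genes of the pathway were 36 in 7 lists. Of the 19 that were tested 3 rose in DNCB and no other was called, where 15.6% of all tested genes rose and 4.87% fell. In scMSC against DNCB 5 of the 19 fell, against 24.9% of all tested genes, in scivMSC against DNCB 14 fell, against 62%, and in scivMSC against scMSC 9 fell, against 30.4%. Tirap was tested through the DNCB libraries alone, so its rise in DNCB and its falls from DNCB were built into these counts. The median log2 change of the 19 in DNCB against Solvent was -0.04, where all tested genes had 0.06. Under TMM scaling 1 of the 19, Sigirr, fell in DNCB, against 11.5% of tested genes, and in scivMSC against DNCB 7 fell and 4 rose, against 18.9% and 20.6% of tested genes. In the fit of all genes 4 of the 36 rose in DNCB (Lbp, Tirap, Irak4 and Tlr5), against 3.41% of all genes, and 6 fell in scMSC and 22 in scivMSC when set against DNCB, where 4.65% and 22.9% of all genes fell.

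Among the adaptors Tirap, which bridges Tlr2 and Tlr4 to Myd88, rose by 3.51 ± 0.58 on the log2 scale in DNCB (edgeR adjusted p = 0.000386), from 0.207 ± 0.029 to 2.38 ± 0.63 FPKM (SD, n = 3), and fell by 2.51 in scMSC and by 3.54 in scivMSC. Like Tlr4 and Tlr8, Tirap reached 1 FPKM in the DNCB libraries alone, so a difference in DNCB was built into its being tested. Pik3ap1, which links the receptors to PI3 kinase, stood at 0.08 in DNCB and fell in scivMSC. Ticam1 and Ticam2, adaptors of the Myd88-independent arm, and Sarm1 did not reach the filter, with group means of at most 0.470, 0.266 and 0.0454 FPKM. Of 6 tested kinases and ligases 1 rose in DNCB, Irak4, the kinase that binds Myd88 directly, by 1.54 ± 0.42 (edgeR adjusted p = 0.0138), and it fell by 1.69 in scMSC and by 3.06 in scivMSC. Its relative Irak1 stood at -0.55, the TAK1-binding Tab2 at 0.76 and the ligase Peli1 at -0.69, and these 3 were not called. Irak2, Traf6, Map3k7, Tab1 and Tab3 were under the filter, between 0.0823 and 1.03 FPKM as group means.

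Of 3 tested inhibitors Irak3, which blocks release of the Irak kinases from Myd88, rose by 1.36 ± 0.46 in DNCB (edgeR adjusted p = 0.0449), while Sigirr stood at -1.01 (adjusted p = 0.234) and Tollip at 0.38 (adjusted p = 0.437), and Tnfaip3 was under the filter. The endosomal chaperone Unc93b1, which carries nucleic acid-sensing receptors from the endoplasmic reticulum, had 5.54 ± 2.93 FPKM in Solvent and 9.57 ± 2.98 in DNCB (SD, n = 3), a log2 change of 0.79 ± 0.47 that was not called, and fell by 1.80 in scMSC (edgeR adjusted p = 0.0106). Cnpy3, which folds the receptors, stood at 0.81 in DNCB and fell by 1.86 in scMSC. Their partner Hsp90b1 (-0.79) and the lysosomal transporter Slc15a4 (0.30) were not called in DNCB either, so 0 of 4 trafficking genes rose there, and at an unadjusted p under 0.05 there were 0 as well. The interferon regulatory factors Irf3, Irf5 and Irf7 stood at -0.19, -0.30 and -0.43 in DNCB, and Irf3 and Irf5 fell in scivMSC.

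Of the co-receptor list the scavenger receptor Cd36 alone was tested (-0.34 in DNCB, not called). The lipopolysaccharide partners lay below the filter but leaned to DNCB. Lbp, which loads lipopolysaccharide onto Cd14, had 0, 0 and 8 counts in Solvent and 150, 261 and 172 in DNCB, and was called in the fit of all genes (edgeR adjusted p = 9.22e-05). Ly96, the subunit that holds the ligand for Tlr4, had 8, 8 and 0 counts in Solvent and 72, 62 and 44 in DNCB (adjusted p = 0.246, not called). Cd180 and Ly86, a B cell pair, were not called in DNCB, at -1.52 and -0.64. Of the other Toll-like receptors the flagellin receptor Tlr5 had 10, 4 and 0 counts in Solvent and 97, 174 and 91 in DNCB and was called (adjusted p = 0.00398), whereas Tlr3, Tlr11 and Tlr12 had group means of at most 0.0341, 0.0394 and 0.379 FPKM. With Solvent at the floor, fitted folds of Lbp, Ly96 and Tlr5 depend on the prior count and are not given.

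**Figure D5:**
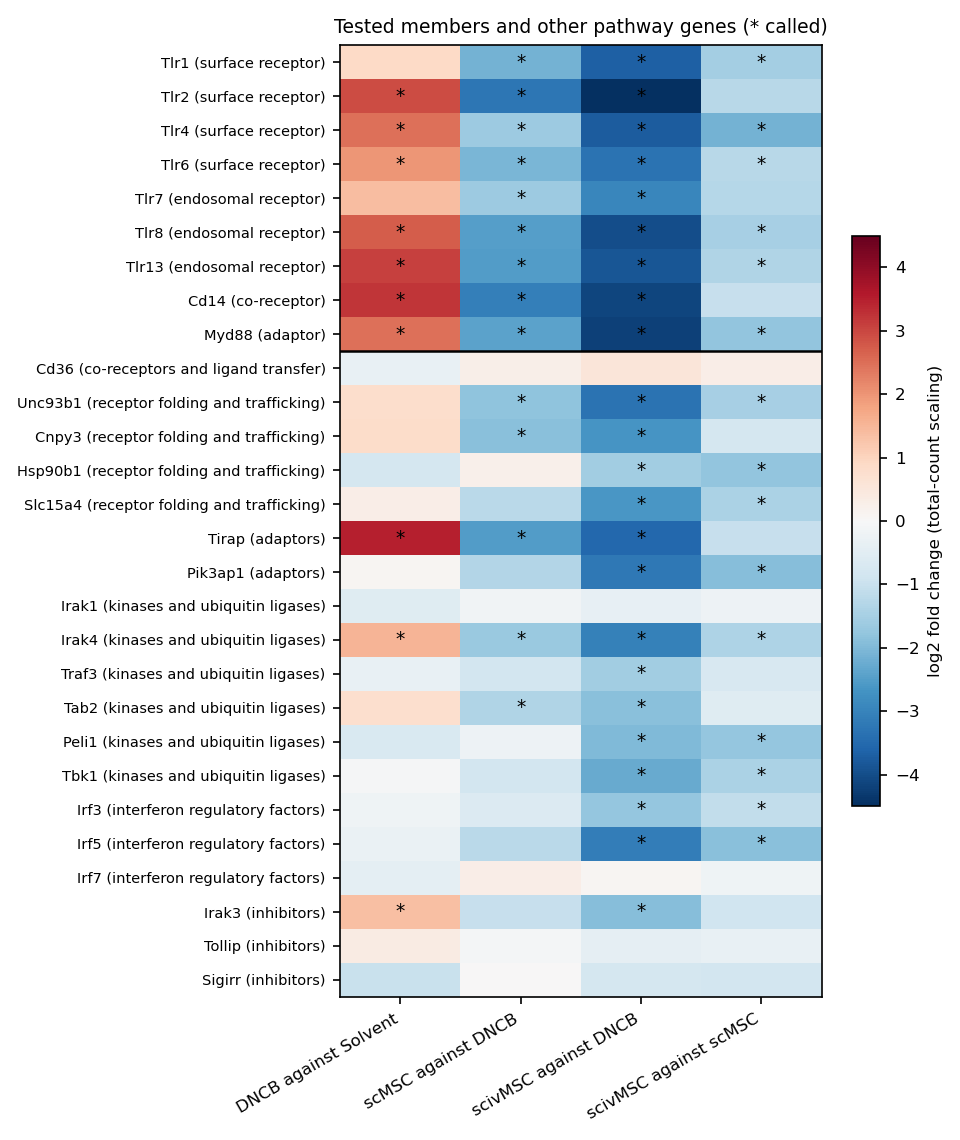
Log2 fold changes (colour, total-count scaling) of the 9 tested members, above the line, and 19 tested pathway genes in 4 comparisons; an asterisk marks a call at an adjusted p under 0.05 and a fold over 2. In the DNCB column 7 members and Tirap, Irak4 and Irak3 are called, and in scivMSC against DNCB all 9 members and 14 pathway genes.

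The genes most like each member were the 3 tested genes with the smallest root-mean-square difference of centred log2(FPKM + 1) profiles over the 12 libraries, a description with no test. The other members, and predicted genes with only a systematic name, were left out of this ranking. Nearest to Tlr13 were Pi16, Cpd and Hk3 (0.103, 0.110 and 0.134, where the profile of Tlr13 itself has a root mean square of 1.11). Nearest to Tlr2 were Sirpb1a, C3 and Aldh3b1 (0.162, 0.172 and 0.184 of 0.984). Myd88 lay nearest to Fgr, Rgs2 and Emilin2, Cd14 to Rhog, Ckap4 and Slc16a3, Tlr6 to Tfdp1, Furin and Ugp2, Tlr8 to Palm, Sfxn5 and Hdac4, Tlr4 to Elovl1, Itpripl2 and Dock5 and Tlr7 to Gnpda1, Jak2 and Gba2. Tlr1 lay nearest to Il4ra, Ddx6 and Grb2 (0.142, 0.152 and 0.158 of 0.910), of which Il4ra had 3.78 FPKM in Solvent, 6.88 in DNCB, 2.03 in scMSC and 0.705 in scivMSC. For Tlr9 the nearest genes, Cops2, Phc2 and Nup62, differed by 0.111 to 0.126 where its profile has a root mean square of only 0.223. The 10 sets of 3 hold 30 different genes.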

How the data were processed

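Whole-genome expression was measured by RNA sequencing of blood in 12 libraries. For each gene and library the authors deposited an FPKM value and an estimated count, both used here. The submitters' processing notes list Bowtie 0.12.2, HISAT2 2.0, StringTie 1.3.0 and mm8, with no role or order, and the library's strand setting is not given in the sources used here. The table also holds the authors' gene annotations. Groups were taken from the labels. Members and lists were chosen with earlier results of these data known. The estimated counts were rounded and fitted over all 4 groups with edgeR 4.0.16 (quasi-likelihood, R 4.3.3), scaled by total counts. Genes reaching 1 FPKM in at least 3 libraries were tested, p-values were adjusted over all of them by Benjamini-Hochberg, and a call needed an adjusted p under 0.05 and a fold over 2. Named genes were all members, listed pathway genes and the 3 genes most like each member. No correction was made for haemoglobin, which takes most reads and leaves the other genes shallow. Low counts clustered on multiples of 4 (29.0% of cells with 1 to 12 counts held 4). The floor covers counting error only, and SDs and SEs hold the spread between libraries. Symbols with several identifiers numbered 36, none of them a member or listed gene, and 0 pairs of libraries were identical. Alternatives were TMM scaling, haemoglobin left out, no filter, DESeq2 1.42.0, limma 3.58.1 on log2(FPKM + 1) or log2(FPKM + 0.1), the 2 compared groups alone, a replicate block and each library left out. The no-filter values of all members, the ratios within libraries the neutrophil scale without S100a8 and S100a9 or per Csf3r, and the values without scivMSC replicate 2 were added after seeing the data. The fit was tested on simulated data. Tables were handled in Python 3.11.15 with numpy 2.4.6, pandas 2.3.3 and matplotlib 3.10.9.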

Additional observations from a re-analysis of the deposited data

How the results depend on the processing

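The 7 calls in DNCB against Solvent stood at 7 or 8 with any library left out, at 7 with no filter and at 6 with limma on log2(FPKM + 1). They became 8, Tlr7 being added, under TMM scaling, with haemoglobin left out and with DESeq2. The same 8 were called with limma on log2(FPKM + 0.1), a replicate block and the 2 groups alone. The 9 calls in scivMSC against DNCB stood at 9 under each alternative run. The 9 calls in scMSC against DNCB ranged from 7 to 9. Comparisons without DNCB depended on the scaling. The 6 members called in scivMSC against scMSC became 1 under TMM scaling, 1 with DESeq2, 1 with limma on log2(FPKM + 1) and 0 with the 2 groups alone, where 6 had an unadjusted p under 0.05 in edgeR, and they ranged from 1 to 8 with a library left out. The 0 called in scMSC against Solvent became 1 under TMM, 2 with DESeq2 and 1 with the 2 groups alone, and 0 to 1 with a library left out. The 5 called in scivMSC against Solvent became 1 under TMM, 1 with DESeq2, 2 with limma on log2(FPKM + 1) and 2 with the 2 groups alone, and 2 to 8 with a library left out.

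Among the alternatives run, log2 changes turned their direction only against Solvent. In scMSC the log2 changes turned positive for Tlr2 (0.34 under TMM, 0.33 with DESeq2), Tlr6 (0.51 and 0.50, and 0.17 with haemoglobin left out) and Tlr7 (0.38 and 0.38, and 0.0481 with haemoglobin left out). In scivMSC they turned positive for Tlr2 (0.0111 with DESeq2), Tlr6 (0.0193 under TMM, 0.0454 with DESeq2), Tlr8 (0.0582 and 0.0859), Tlr13 (0.52 and 0.54) and Cd14 (0.43 and 0.41). With a library left out, the changes in scMSC against Solvent crossed 0 for Tlr2 (-0.71 to 0.11), Tlr6 (-0.24 to 0.24), Tlr7 (-0.62 to 0.51), Cd14 (-0.20 to 0.43) and Myd88 (-0.14 to 0.38). The surface minus endosomal shift in DNCB moved to 0.46 with a pseudocount of 0.1 and 0.70 without Tlr13, in scMSC against DNCB to -0.74 without Tlr13, in scivMSC against DNCB to -0.76 and -1.02, and between the routes to -0.33 with a pseudocount of 0.1. Tlr9 was kept in each of these runs, so they do not show how far the shift rests on it. The cause of the changes was not tested.

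Same-numbered libraries correlated by -0.20 to 0.17, so the numbers were not read as pairs. With a replicate block, members called were 8 in DNCB against Solvent, 9 in scMSC and 9 in scivMSC against DNCB, 6 between the MSC routes, and 0 for scMSC and 6 for scivMSC when set against Solvent. Depth limits Tlr9 and the scivMSC values of Tlr4, Tlr8 and Cd14, which rest on few fragments.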

Other observations

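Genes that the table annotates to the KEGG Toll-like receptor term, other than the members and listed pathway genes, numbered 57, of which 31 were tested. The set was chosen after the table's columns were seen. In DNCB against Solvent 7 of the 31 rose and 3 fell, where 15.6% of all tested genes rose and 4.87% fell. Against DNCB 9 fell in scMSC and 22 in scivMSC, where 24.9% and 62% of all tested genes fell. Under TMM scaling 6 rose and 4 fell in DNCB, where 16.1% and 11.5% of tested genes did. Il1b, the pro-inflammatory cytokine interleukin-1β, had 13.5 ± 3.88 FPKM in Solvent, 84.4 ± 12.8 in DNCB, 17.5 ± 3.01 in scMSC and 5.43 ± 3.07 in scivMSC (SD, n = 3). It rose by 2.64 on the log2 scale in DNCB (edgeR adjusted p = 0.000206) and fell by 2.28 in scMSC and by 3.96 in scivMSC. Fos and Jun, subunits of the AP-1 transcription factor, rose by 1.77 and 1.62, the kinases Mapk13, Akt1 and Mapk3 by 4.65, 1.42 and 1.28, and the interferon receptor chain Ifnar2 by 1.13. By their means and SDs, Jun and Mapk13 can have reached 1 FPKM in the DNCB libraries alone. Their rises, and their falls in both MSC groups against DNCB, were therefore built into the counts above. The same holds for the fall of the chemokine Ccl3 in scivMSC. The kinases Mapk11 and Ikbke fell by 1.67 and 1.47 and the T cell chemokine Ccl5 fell by 1.22.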
